A study of Oryctolagus cuniculus with 6 samples.

Results

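Across 6 rabbit corneas, 2064 merged accessible regions lay in 87 megabase windows that each held 20 or more of them, out of 16249 regions on chromosomes 1 to 21 and 26220 in all. The members were chosen by pooling the peaks of the 6 libraries, merging peaks that shared at least 1 bp, and placing each region by its midpoint in fixed windows of 1 Mb counted from the start of the chromosome. Every region in a window that reached 20 is a member, and such windows are called dense here. The number of regions per window therefore chose the members and is given below as a description, without a test.

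The 3 naive libraries came from untreated corneas and the 3 burned libraries from corneas injured with sodium hydroxide, all from female rabbits, with tissue taken on day 14. A disc of 8 mm carried the alkali for 30 s at a strength given as 0.5 N in one label and 1 N in another. The labels state that a rabbit had an injured and an uninjured eye, without linking library numbers to rabbits, so some naive and burned libraries may share an animal, and p-values measure only the spread between these libraries. Where 3 values stand for a group, they follow the library numbers 1 to 3. Neither strain nor age was given in the sources used here. No gene annotation of the build OryCun2.0 was used, so the tissue was not checked against marker genes and the windows are described by position.

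ATAC-seq reads open chromatin through a transposase that inserts sequencing adaptors where DNA is not packed into nucleosomes, mostly at promoters and enhancers. Such elements are unevenly spread along mammalian chromosomes: gene-rich stretches hold many, gene-poor stretches few, and genes that define a cell's identity are often flanked by groups of enhancers. The cornea is an epithelium over a collagen-rich stroma of keratocytes, and alkali injury of it is used to study scarring, in which keratocytes give way to fibroblasts and myofibroblasts. No sequence of the files' build was at hand, so none is printed.

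The lists differed widely in length, and this bears on every count below. The whole lists held 8808, 21184 and 8416 naive peaks and 2408, 2319 and 4406 burned peaks. On chromosomes 1 to 21 the naive lists had 4026, 14699 and 4910 peaks and the burned lists 377, 303 and 1094. That was a smaller part of every burned list than of any naive list. Naive library 2 had the most peaks there and supplied most of the regions. A peak in that library alone made up 1148 of the 2064 members (55.6%), against 59.4% of all regions on these chromosomes. The genome background, the number of tags expected by chance at a position, lay between 1.79 and 2.77 tags and stands in for depth, because read totals are unknown.

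The windows were far from evenly filled. Over 2144 windows the mean was 7.58 regions and the variance was 4.41 times the mean, while 115 windows held no region. An even spread would thus have put 7.58 regions in each window, and a dense window held at least 2.64 times that number. No shuffled positions were drawn. The dense windows made up 87 of 2144 windows and had a median of 23 regions, with 41 in the fullest. Just inside the limit, 12 windows held 20 regions, with a mean of 9.78 peaks per naive and 0.611 per burned library. Just outside, 26 windows held 19 regions, with 9.54 and 0.436 peaks. The tail of the distribution was continuous at the limit, so 20 is a chosen border and not a gap in the data.

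**Figure D1:**
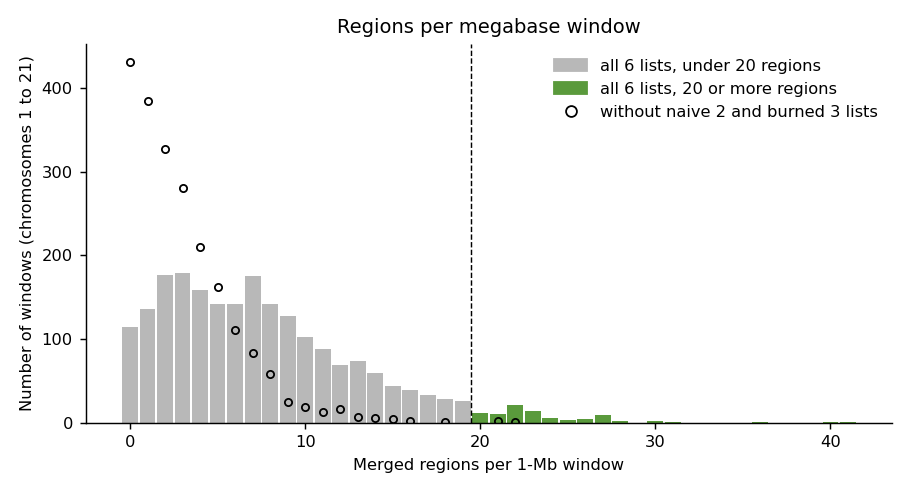
Number of 1-Mb windows on chromosomes 1 to 21 (y axis) by the number of merged regions they hold (x axis), for all 6 lists (bars, dense windows in green) and without the naive 2 and burned 3 lists (circles). The bars run to 41 regions and the circles to 22.

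The limit of 20 rested on naive library 2. Without it, 4 windows with 85 regions reached 20, and without both naive library 2 and burned library 3, the longest list of each group, 3 windows with 64 regions did. These 3 lay on chromosome 12 at 22000001 to 23000000 (22 regions) and 20000001 to 21000000 (21 regions) and on chromosome 8 at 32000001 to 33000000 (21 regions). In those 4 remaining lists the 87 dense windows held 2 to 22 regions each, with a mean of 10.4 against 2.64 in other windows, a ratio of 3.93. Of the windows ranked densest by these 4 lists alone (96 windows, ties included), 56 were dense in the pooled lists. That is 64.4% of the dense windows and 58.3% of the 96. The uneven filling also remained, with a variance of 2.83 times the mean. These 4 lists took part in choosing the 87 windows, so the ratio and the overlap are descriptions.

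The fullest windows were on chromosome 12. Its window at 22000001 to 23000000 held 41 regions, with 16, 32 and 16 peaks in the naive corneas and 6 in each of the 3 burned libraries. The window at 20000001 to 21000000 held 40 regions, with 17, 36 and 13 naive peaks and 0, 0 and 1 burned peaks. These neighbours in rank were almost equal in regions and differed in burned peaks. Between them lay 1 window that was not dense. Chromosome 8 at 32000001 to 33000000 followed with 36 regions, 15, 33 and 16 naive peaks and 0, 0 and 2 burned peaks. Relative to the mean of its own chromosome, this window stood highest of the 87, at 5.37 times.

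Chromosome 19 at 11000001 to 12000000 held 31 regions, with 8, 32 and 14 in the naive lists and 0, 0 and 4 in the burned lists. On chromosome 13 at 138000001 to 139000000 there were 30 regions, with 8, 28 and 11 naive peaks and no burned peak. Chromosome 12 at 32000001 to 33000000 also had 30 regions and no burned peak, and its naive libraries had 4, 30 and 9. In this window the density came mainly from naive library 2. The next in rank held 28 regions on chromosome 13 (42000001 to 43000000) and on chromosome 9 (72000001 to 73000000). At 27 regions 9 windows were tied. Those on chromosome 2 (62000001 to 63000000) and chromosome 4 (39000001 to 40000000) had the most peaks of the 9 and were taken as the last of 10, and 7 windows as full are not named here for their rank.

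Dense windows lay on 19 of the 21 chromosomes. Chromosome 13 had the most, 13 of its 144 windows (9.03%), and chromosome 12 had 10 of 156 (6.41%). Chromosome 5 had 7 of only 38 windows (18.4%), and these held 162 of its 362 regions (44.8%). Outside its dense windows chromosome 5 averaged 6.45 regions per window, below the 8.14 of chromosome 13 and the 8.79 of chromosome 19. Its regions were therefore gathered in a few windows rather than dense throughout. Chromosome 19, which had the highest mean of all (10.3 regions per window), had 5 dense windows of 58 (8.62%). Chromosomes 11 and 20 had none, and their fullest windows held 14 and 19 regions.

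**Figure D2:**
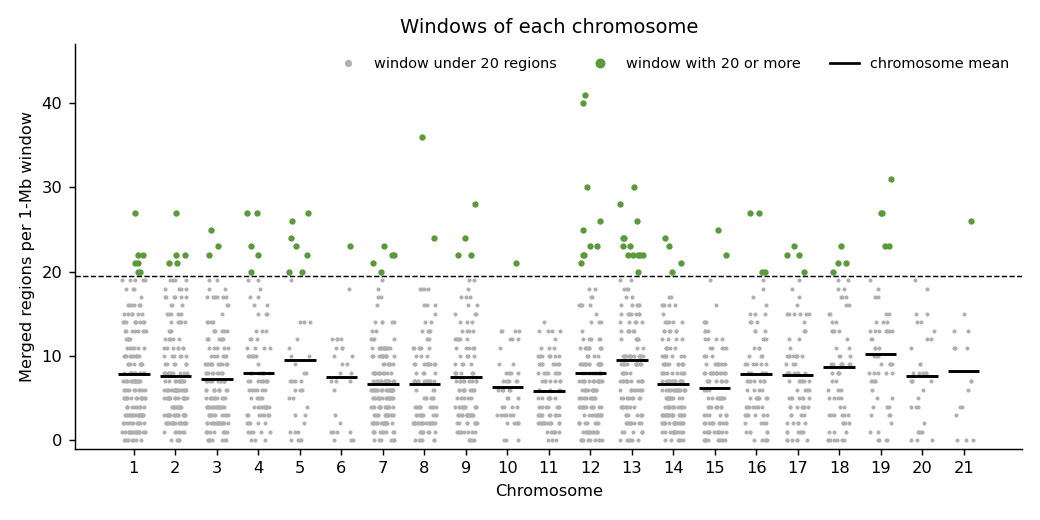
Merged regions in each 1-Mb window (points, spread sideways for clarity) for chromosomes 1 to 21, with the chromosome mean as a black bar and dense windows in green above the dashed line. Chromosome 12 has the 2 highest points, at 41 and 40 regions, and chromosomes 11 and 20 have no point above the line.

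Most dense windows stood alone. The 87 windows formed 75 separate stretches: 66 single windows, 6 pairs and 3 runs of 3, so 21 windows (24.1%) had a dense neighbour. One run covered chromosome 5 from its first base to 3000000 and held 69 regions, with 24, 58 and 25 peaks in the naive corneas and 3, 2 and 6 in the burned corneas. The other runs lay on chromosome 13, at 36000001 to 39000000 with 69 regions and at 40000001 to 43000000 with 74. A single window that was not dense parted them. In the first of these 2 runs the naive libraries had 21, 67 and 30 peaks and the burned libraries 0, 0 and 3, and in the second 24, 69 and 27 and 0, 1 and 3. This stretch of 7 Mb thus held 6 of the 13 dense windows of chromosome 13.

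Windows beside a dense one were fuller than the rest without reaching the limit. The 142 neighbours that were not dense had a median of 11 regions (quartiles 7 and 14), against 6 (3 and 10) in the other 1915 windows below the limit. At a distance of 2 windows from any dense window the mean was 8.28 regions and at 3 windows it was 7.60. Dense windows were left out at these distances, and 1 window can count at several distances. The mean over all windows below the limit was 6.90 regions, so the value at 3 windows was still above it. Per library, peaks next to a dense window were 1.34 to 1.52 times the library's own mean in the naive libraries and 1.55 to 1.89 times in the burned libraries. At 3 windows the 6 libraries lay between 0.948 and 1.01 times. Peak numbers were thus near the library's mean over all windows at 3 windows. That mean includes the dense windows, so this does not show that the excess had ended there.

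**Figure D3:**
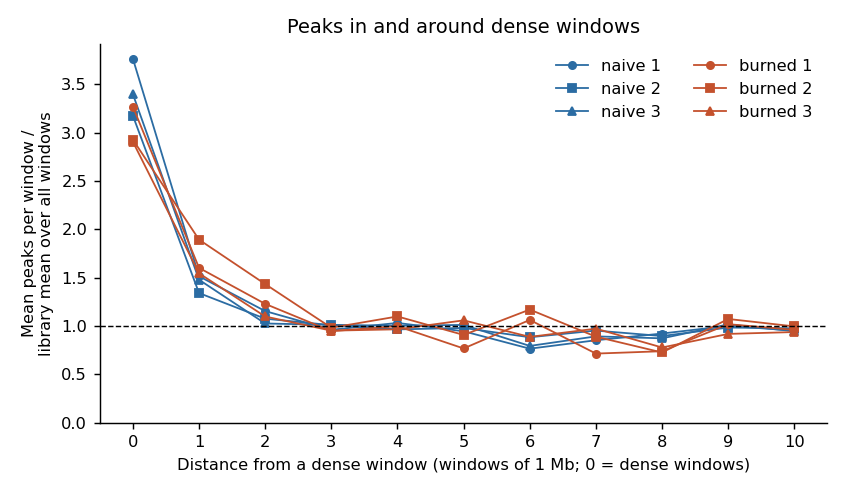
Mean peaks per window, divided by the library's mean over all 2144 windows, for 3 naive (blue) and 3 burned (red) libraries. The x axis is the distance from any dense window in steps of 1 Mb, so 1 window can count at several distances. At 0 are the dense windows, which are left out at other distances. All 6 lines drop from between 2.91 and 3.76 at 0 to between 0.948 and 1.01 at 3.

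The share of dense windows near chromosome ends was close to that of all windows. Of the 87 windows, 11 (12.6%) were among the first 5 windows of their chromosome or the last 5 up to its last region. The same held for 210 of all 2144 (9.79%). The first window was dense on 2 chromosomes, 5 and 8, and the last on chromosome 1.

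Inside dense windows neighbouring regions lay close. The median distance between midpoints was 23.1 kb (quartiles 9.11 and 49.8), against 40 kb in windows of 10 to 19 regions and 78.6 kb in windows of 2 to 9. Distances under 10 kb made up 27% in dense windows, 19.1% and 12.7% in the others. These distances follow from the rule. Divided by the mean distance of their own window, the median was 0.624 in dense windows and 0.640 in windows of 10 to 19. In windows of 2 to 9 it was 0.770. The coefficient of variation of these scaled distances was 1.15, 1.10 and 0.930 in the same order. Distances below 0.1 of the window mean made up 11.6%, 13.1% and 12.7%. Scaling does not take out the number of regions fully. A window with few regions has few distances, which lie nearer their own mean by construction. The median and the variation in dense windows differed slightly from the next class, and the share of very short distances was slightly lower. Whether spacing was less even in dense windows beyond the effect of region number was not tested.

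The fullest window shows both ends of this range. Its closest pair lay at 22308151 to 22308362 and 22308439 to 22308638 on chromosome 12, with midpoints 0.282 kb apart. Its widest space, 132 kb, lay between the regions at 22098525 to 22098759 and 22230566 to 22230869. All 41 regions together covered 15.1 kb, or 1.51% of the window. Over the 87 windows the covered share was 0.608% to 1.52%, with a median of 0.861%.

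Members were a little wider than other regions, with a median of 338 bp against 313 bp, and more of them were called in several lists. Each list that joins a merged region can widen it, so these 2 traits are not independent. A peak in 2 or more lists was present at 778 members (37.7%), against 32.2% of all regions on these chromosomes. This lay mainly in regions without burned peaks: 17.1% against 14.3% with 2 naive lists and 15.4% against 13.0% with 3. A peak in any burned library was less frequent in members, at 6.88% against 7.86%. The remaining 1286 members rested on 1 list each.

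A further comparison asked whether a library was also dense in windows that it had no part in choosing. For each library the windows were chosen anew from the other 5 lists, taking those at least as full as the 87th. The naive corneas had 6.59, 18 and 7.46 peaks per window in them, against 1.64, 6.24 and 2.02 elsewhere. The burned corneas had 0.575, 0.414 and 1.32, against 0.159, 0.130 and 0.467. All 6 libraries were thus denser in windows that they did not choose, by 2.83 to 4.01 times. For burned libraries 1 and 2 the new choice gave 87 windows, with the same 50 and 36 peaks as the dense windows. The choices shared most of their lists, so the 6 ratios are not independent. The mean log2 ratio was 1.74 ± 0.206 (SD, n = 6; exact two-sided sign-flip test, p = 0.03125, the smallest that 6 libraries can give). After Benjamini-Hochberg adjustment over the 5 measures compared in this way, this exact p was 0.0521, above 0.05. The ratios of the groups overlapped, with a burned minus naive log2 difference of -0.13 (exact permutation test, p = 0.4, n = 3 per group).

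The share of a library's peaks in the dense windows is given first for the windows that these same peaks helped to choose. Shares of peaks on chromosomes 1 to 21 were 15.3%, 12.9% and 13.8% in the naive corneas (counting intervals of 95% by Wilson's method: 14.2 to 16.4, then 12.4 to 13.4, then 12.9 to 14.8). In the burned corneas they were 13.3%, 11.9% and 11.8% (10.2 to 17.1, then 8.71 to 16.0, then 10.01 to 13.8). These intervals cover counting error only and treat the peaks of a list as independent. Peaks were unevenly spread over windows in each list, with a variance of 1.63 to 4.32 times the mean. The intervals are therefore likely too narrow. The groups overlapped, since burned library 1 lay above naive library 2.

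Because naive peaks dominate the choice of windows, the share was also taken in windows chosen without the 2 libraries compared. For each of the 9 pairs of a naive and a burned library, the windows came from the other 4 lists, 2 of each group. The mean share was 15.05% ± 1.77 in naive and 14.8% ± 1.73 in burned libraries (SD, n = 3 each), a difference of -0.290 percentage points (exact permutation test, p = 1). Single pairs ranged from -5.35 to 9.96 points. All 3 pairs with naive library 2 were positive, and all pairs with naive libraries 1 and 3 were negative (-5.35 to -2.05). Each burned library had its highest share beside naive library 2, when that list did not choose the windows (23.3%, 20.8% and 15.6%). The mean thus joined pairs of opposite sign and does not show that the groups had equal shares. A difference of a few points in either direction was therefore not detectable with these libraries.

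Peak numbers per dense window were lower in the burned libraries, as they were elsewhere. The mean was 12.2 ± 8.29 peaks in naive and 0.824 ± 0.576 in burned libraries (SD, n = 3 each), and 3.31 ± 2.53 and 0.253 ± 0.188 in other windows. These numbers follow the list lengths and come from the counts that chose the windows, so no test is given. Each library came from bulk tissue, in which fewer cells of a type and less accessibility per cell cannot be told apart. Taken as means of log values, the naive libraries had 15.03 times as many peaks in dense windows and 13.0 times as many elsewhere. Every naive library had more peaks than every burned library in 81 of the 87 dense windows (93.1%), against 51.7% of all windows. The other windows often have no peak in at least 1 naive library, so separation is harder to reach there, and the rule favours windows rich in naive peaks.

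In 4 of the 6 windows without this separation, burned peaks reached naive numbers. On chromosome 18 at 6000001 to 7000000, the naive corneas had 11, 10 and 7 peaks and the burned corneas had 5, 3 and 11. This window had the most burned peaks of the 87, and naive library 2 had its lowest number of any dense window there. On chromosome 2 at 62000001 to 63000000 the numbers were 15, 18 and 10 in naive and 5, 0 and 10 in burned libraries. Chromosome 8 from its first base to 1000000 had 7, 19 and 4 naive peaks against 4, 3 and 7 in the burned lists. For chromosome 7 at 172000001 to 173000000 the naive lists gave 10, 16 and 3 peaks and the burned lists 3, 2 and 4. In all 4, burned library 3, the longest list of its group, was at or above the lowest naive number. The other 2 windows, on chromosome 13 (70000001 to 71000000) and chromosome 14 (85000001 to 86000000), had no peak in naive library 1 or in any burned library.

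Burned peaks were concentrated in few dense windows. Of 215 burned peaks in the 87 windows, 100 (46.5%) lay in 8 windows, while 30 windows had none. The same 8 windows held 9.54% of the naive peaks. Besides the 5 windows named above on chromosomes 18, 12, 2, 8 and 7, they were on chromosome 10 (45000001 to 46000000), chromosome 12 (148000001 to 149000000) and chromosome 2 (112000001 to 113000000). They were ranked by their burned peaks, so this concentration is a description. It is not shown to be particular to dense windows. Burned libraries 1, 2 and 3 had no peak in 73.6%, 73.6% and 36.8% of dense windows, against 88.2%, 90.0% and 66.5% of other windows. Over all 2144 windows their variance was 1.86, 1.63 and 1.67 times the mean. By library, the 8 windows held 33 of 50, 18 of 36 and 49 of 129 dense-window peaks of the burned corneas.

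The local background was higher in a part of these windows. Over the peaks of all 8 its median was 2.48, 2.25 and 2.68 times the genome background in the burned corneas, against 1.37, 1.27 and 1.49 times in the 49 other dense windows with burned peaks. In the naive corneas it was 1.97, 2.06 and 1.93 times in the 8 windows and 1.6, 1.96 and 1.74 times in the 49. By window, the median over burned peaks was 6.82 in the fullest window, 5.05 and 3.39 in the windows on chromosome 2, 2.76 on chromosome 18 and 1.91 on chromosome 8. In the other 3 it was 1.28 (chromosome 7), 1.38 (chromosome 10) and 1.40 (chromosome 12 at 148000001), which lies at the level of the 49 windows. The part of local background in the burned peak numbers was not tested.

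**Figure D4:**
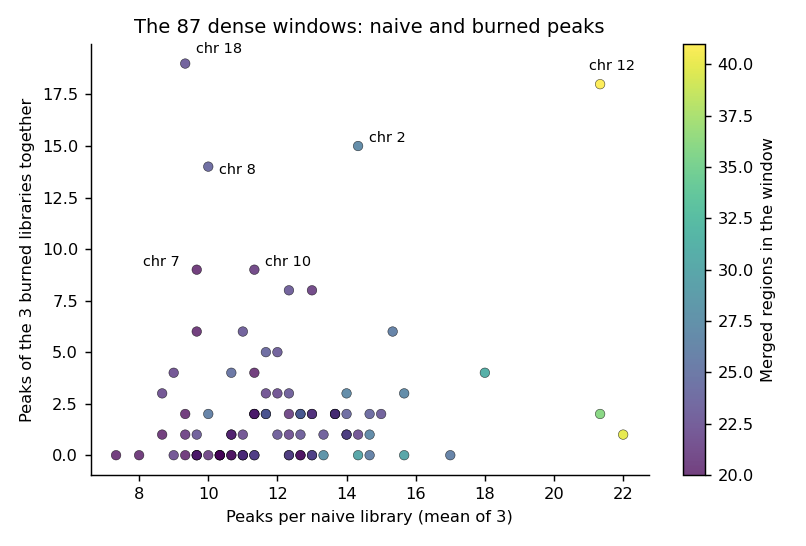
Peaks of the 3 burned libraries together (y axis) against the mean number of peaks per naive library (x axis) in each of the 87 dense windows, coloured by the number of merged regions. The windows with most burned peaks, 19 on chromosome 18 and 18 on chromosome 12, lie at 9.33 and 21.3 naive peaks, and 30 windows lie at 0 burned peaks.

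Single members repeated the division between lists. A peak in 3 naive and 0 burned libraries was present at 318 members (15.4%), against 13.0% of all regions on chromosomes 1 to 21, and the fullest window had 5 of them. Without the longest list of each group, 3 windows remain dense, so the share was taken in the 96 windows ranked densest by the other 4 lists. There a peak in both naive and neither burned library was present at 435 of 1099 regions (39.6%), against 39.0% of all regions of these lists. A peak in any burned library was found at 142 members (6.88%), against 7.86% of all regions. No member had a peak in 3 burned and 0 naive libraries, a class with 3 of 16249 regions (0.0185%). A peak in 2 burned and 0 naive libraries was present at 2 members (0.0969%), against 0.111% of all regions. These members lay on chromosome 18 (6089631 to 6089893) and chromosome 3 (22912105 to 22912577), both in burned libraries 1 and 3. Their summits held 29 and 32 tags on chromosome 18, over backgrounds of 9.12 and 11.1 tags, and 10 and 11 tags on chromosome 3, over 1.83 and 2.14. These 2 were chosen after their values were seen.

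A peak in all 6 libraries was present at 19 members (0.921%), against 0.831% of all regions, and 13 of the 19 lay in the 8 windows rich in burned peaks. Each such member adds peaks of every burned library to its window. Its place there thus follows in part from ranking windows by burned peaks. The authors' fold, the tags at the summit over the local background, was highest on chromosome 12 at 96965504 to 96965897. It was 21.3, 22.3 and 24.9 in the naive corneas and 23.4, 17.4 and 22.3 in the burned corneas. The next highest lay on chromosome 1 at 75305307 to 75305681, with a mean fold of 11.1 ± 1.24 (SD, n = 6). It was followed by members on chromosome 14 (92207916 to 92208308, fold 10.2 ± 1.96) and again on chromosome 12 (148454121 to 148454494, fold 10.1 ± 1.22). The fifth lay on chromosome 7 (172308861 to 172309431, fold 7.36 ± 0.955). Naive and burned folds overlapped at all 19 members. A fold is scaled within each list and its background, so this overlap is not a comparison of signal between corneas.

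Of these 19 members, 5 lay within 10.3 kb in the fullest window, at 22361646 to 22371928 on chromosome 12. The stretch held 6 regions in all, with 7, 6 and 5 peaks in the naive corneas and 6, 5 and 6 in the burned corneas. So 17 of the 18 burned peaks of that window, the fullest of the 87, came from this stretch. The local background at the 5 members was 4.90 to 10.1 times the genome background over the 6 libraries. At the first of them (22361646 to 22362437) there were 91, 57 and 63 summit tags in the naive libraries and 60, 74 and 81 in the burned libraries. Its folds were 6.32, 5.91 and 5.79 in naive and 5.45, 6.35 and 6.33 in burned libraries, so the groups overlapped. Outside this stretch the window had 35 regions and 1 burned peak.

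The leading regions of the other fullest windows had fewer burned peaks. On chromosome 12 at 20964016 to 20964827 the fold was 4.49, 6.30 and 5.51 in the naive corneas and 4.75 in burned library 3. The region on chromosome 8 at 32874903 to 32875758 had naive folds of 4.87, 7.69 and 5.89 and 3.73 in burned library 3. On chromosome 19 at 11766890 to 11767615 the naive folds were 5.15, 7.78 and 6.10 and burned library 3 had 4.44. In each of these 3 the other burned libraries had no peak, which does not show closed chromatin, because a list shows only what passed the caller's limit. On chromosome 13 at 138743975 to 138744359 the fold was 4.45, 9.09 and 6.59 in the naive libraries, and no burned library had a peak.

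Peaks in dense windows had more tags at the summit, over a higher local background, and a slightly lower fold than peaks elsewhere on the same chromosomes. Median summit tags were 22, 22 and 20 in dense windows of the naive corneas, against 20, 19 and 18 elsewhere, and 22, 25.5 and 20 in the burned corneas, against 19, 21 and 15. Local background, as a multiple of the genome background, had medians of 1.6, 1.93 and 1.77 in naive and 1.88, 1.48 and 1.66 in burned libraries. Elsewhere it was 1.28, 1.47 and 1.41 times in naive and 1.28, 1.24 and 1.18 times in burned libraries. It was higher in dense windows in 6 of 6 libraries, with a mean log2 difference of 0.43 ± 0.116 (SD, n = 6; exact sign-flip test, p = 0.03125, adjusted 0.0521). Unlike the held-out density, this used the dense windows that each library's own peaks helped to choose. Tags of nearby peaks may enter the local background, so the rule can favour this difference. It can also favour a lower fold, which is taken over that background. The p-values do not allow for this, and its part was not tested.

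The median fold was 4.04, 5.00 and 4.91 in dense windows of the naive corneas, against 4.51, 5.37 and 5.38 elsewhere. In the burned corneas it was 4.60, 5.10 and 4.31, against 5.35, 5.28 and 4.80. It was lower in dense windows in 6 of 6 libraries, with a mean log2 difference of -0.14 ± 0.0573 (SD, n = 6; exact sign-flip test, p = 0.03125, adjusted 0.0521). The fold difference was smaller, and did not pass its test, at peaks that had no other peak of their own list within 50 kb. There the mean was -0.050, lower in 5 of 6 libraries (exact p = 0.1875), whereas the local background was still higher in 6 of 6, by 0.26 (exact p = 0.03125). Both differences were larger at a limit of 25 regions, with -0.32 for the fold and 0.84 for the background, and the background difference was 0.28 at a limit of 15. The burned and naive libraries differed by -0.0085 in the fold measure (exact permutation test, p = 0.9) and by 0.17 in the background measure, which was 0.51 ± 0.104 in burned and 0.34 ± 0.0344 in naive libraries (n = 3 each; exact permutation test, p = 0.1, the smallest possible, adjusted 0.6).

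**Figure D5:**
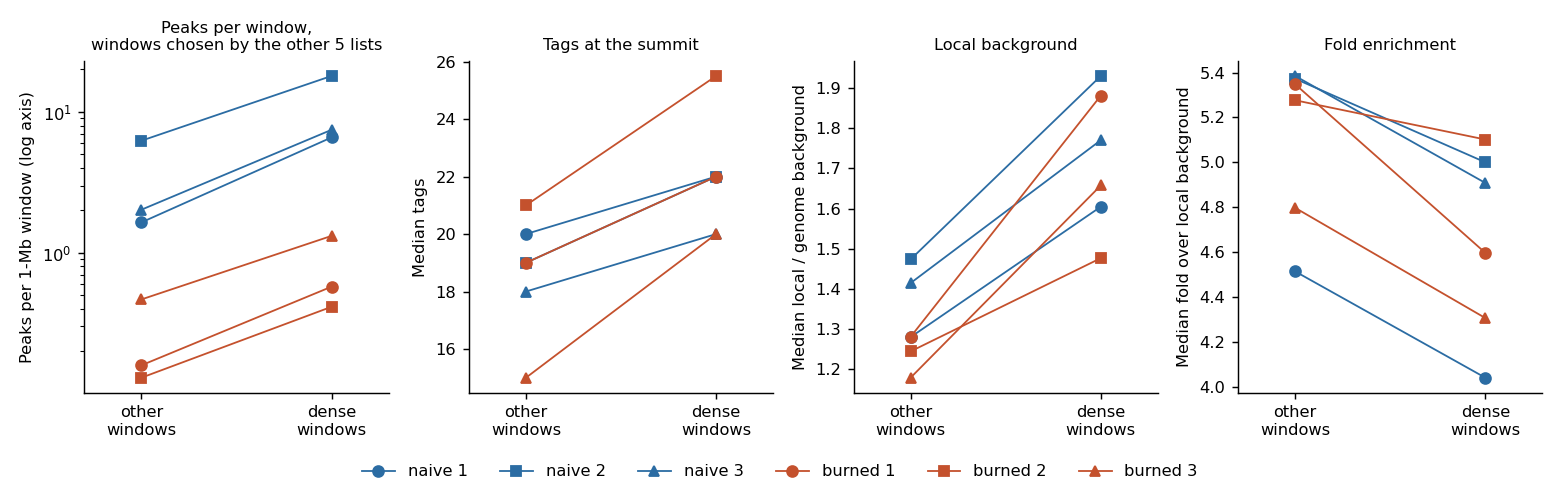
For each library, peaks per 1-Mb window in windows chosen by the other 5 lists (log axis), and the median summit tags, local background and fold of its peaks in the 87 dense windows and in other windows of chromosomes 1 to 21. Lines join the 2 values of a library. All 6 lines rise in the first 3 panels and fall in the last. The axes of the last 3 panels do not start at 0.

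For peak width and for recurrence, the differences were within the spread between libraries. The median width in dense windows minus that elsewhere was -3, 20 and 7 bp for naive tissue and 4.5, 48 and 16 bp for burned tissue (mean 15.4 ± 18 bp, SD, n = 6; exact sign-flip test, p = 0.0625, adjusted 0.0781). It was 8.3 bp without naive library 2, 8.9 bp without burned library 2 and 10.1 bp without burned library 3. The share of a library's peaks at regions called in all 3 libraries of its group was 63.4%, 20.3% and 58.1% in dense windows of the naive corneas, and 66.8%, 17.6% and 54.2% elsewhere. In the burned corneas it was 48%, 58.3% and 17.1%, and 47.1%, 56.2% and 15.6% elsewhere. The mean difference was 1.28 ± 2.5 percentage points (SD, n = 6; exact sign-flip test, p = 0.25, adjusted 0.25). Within each library, the dense windows were thus not shown to hold more of the reproducible peaks. Both measures used windows that these peaks helped to choose. The rule counts a region once however many lists call it, which can bear on recurrence. The p-values do not allow for this, and its part was not tested.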

How the data were processed

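ATAC-seq was done on 6 corneas, 3 naive and 3 burned. The submitters' processing notes name OryCun2.0 as build and Bowtie2, SAMtools and FastQC as tools, while a peak caller and any removal of duplicates are not given in the sources used here. Peaks were called for each library by the authors, as the separate lists show. Each deposited list gives a fold (a ratio of summit tags to local background), a -log10 p-value, a -log10 q-value, and an integer score made from the latter, which was not used.

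Tags and local background of each peak were solved from the deposited fold and p-value, as (tags + 1)/(background + 1) with a Poisson tail, within 0.001 of the -log10 p-value for 100% of peaks. The smallest background of a list was taken as its genome background. This reading of the caller is inferred from the values. Depth beyond it is unknown. Start and end were read as 0-based and are printed from 1.

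Peaks sharing at least 1 bp were merged and placed by midpoint in 1-Mb windows. Windows run to the last region of a chromosome, since chromosome lengths were not used. Differences within libraries were tested with exact two-sided sign-flip tests over 6 libraries, and groups with exact two-sided permutation tests over 10 splits. P-values were adjusted by Benjamini-Hochberg over 5 measures within libraries and 6 comparisons of groups. Sign-flip tests treat the 6 libraries as independent. Named were the 10 fullest windows (ties by total peaks), runs of 3 or more, windows at the extremes of burned peaks, those dense without the longest lists, the leading region of the 5 fullest windows and the 5 members with a peak in all 6 lists and the highest fold.

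The members, lists and tests were chosen with earlier results of these data known. The code was tested on simulated lists. Alternatives were 15 or 25 regions, windows shifted by 500000 bp, -log10 q of at least 5, merging at 50% overlap, leaving out libraries and the replicate block. Computation used scipy 1.17.1, pandas 2.3.3 and numpy 2.4.6 under Python 3.11.15, and matplotlib 3.10.9 drew the plots. The gene table at hand is of another build, so no genes were assigned.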

Additional observations from a re-analysis of the deposited data

How the results depend on the processing

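The dense windows (87 with 2064 members) numbered 257 with 4907 members at a limit of 15 regions, 24 with 686 at 25 regions, 24 with 536 for peaks with a -log10 q of at least 5, and 3 with 64 without the longest list of each group. Leaving out 1 library gave 4 to 87 windows and 85 to 2060 members, the lowest without naive library 2. Filters and fewer lists lower these counts by construction. Where a filter or left-out library changed the number of dense windows, the other measures were taken in windows at least as full as the 87th (87 to 112 windows). The held-out density (log2) kept its direction in 12 of 12 alternatives, with 2.12 without the longest lists (exact p = 0.125, the smallest for 4 libraries) and 1.52 to 2.17 without 1 library. Local background kept its direction in 13 of 13, with 0.28 at 15 regions, 0.84 at 25 regions, 0.32 without the longest lists (exact p = 0.125) and 0.33 to 0.45 without 1 library. The fold kept its direction in 13 of 14. It was -0.32 at 25 regions, -0.13 without the longest lists and -0.15 to -0.12 without 1 library. At peaks without another within 50 kb it was -0.050. At peaks whose local background equals the genome background it was 0.023 (3 to 29 dense-window peaks per library, exact sign-flip test, p = 0.5). There the difference was 0 in naive libraries 2 and 3 and burned libraries 1 and 2. It was 0.040 in naive library 1 and 0.0995 in burned library 3, so no reversal is shown. These last 2 settings were chosen after seeing the data. Leaving out libraries cannot reach p below 0.0625 with 5. The width difference was 16.9 bp (exact p = 0.03125) with shifted windows, but 3.42 bp at 15 regions (exact p = 0.34375), 6.25 bp without the longest lists and 8.3 to 17.6 bp without 1 library.

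Recurrence turned to -0.51 points at 15 regions, -0.065 at the stricter q and -3.62 without the longest lists, and was -1.17 to 5.27 without 1 library (-1.17, -0.88 and -0.74 without naive libraries 1 and 2 and burned library 3). The held-out share, burned minus naive, turned to 0.38 points at 25 regions, 0.41 at the stricter q, 0.27 with merging at 50% and 2.73 without the longest lists. It was -1.37 to 5.56 without 1 library (1.79, 5.56 and 4.22 without naive libraries 1, 2 and 3). Neither passed its test in any of these alternatives, and the cause was not tested. In the windows re-ranked in this way, the share of regions with a peak in every naive and no burned library was taken again. It was 13.1% of 1703 regions at the stricter q (12.7% of all) and 39.6% of 1099 without the longest lists (39.03% of all). Without 1 library it was 15.4% to 32.7%, where fewer lists make the criterion looser, for all regions too. Without naive libraries 1, 2 and 3 it was 27.03%, 32.7% and 21.2%, against 24.13%, 31.99% and 17.1% of all regions. Without burned libraries 1, 2 and 3 it was 15.4%, 15.4% and 17.1%, against 13.07%, 13.05% and 15.3%.

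Under a replicate block, which pairs libraries by number, the held-out share differed by -0.0879 points (exact sign-flip test, p = 1). The group differences had exact block p-values of 0.25 to 1 and no call changed. Deviations of same-numbered libraries correlated across regions at -0.0930, 0.237 and 0.129, which does not establish pairs.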

Other observations

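The X chromosome lay outside the rule. It had 391 regions, and 1 of its 112 windows, at 33000001 to 34000000, reached the limit with 23 regions. Naive libraries 1, 2 and 3 had 9, 23 and 11 peaks in this window and burned libraries 1, 2 and 3 had 0, 0 and 2.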
